A study of Mus musculus with 2 samples.

Results

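Open chromatin away from promoters often gathers in dense clusters. In the peak table of an ATAC-seq experiment on cardiac fibroblasts, such clusters were built by position alone. Peaks on the numbered chromosomes that the table's annotation places neither in a promoter nor in a 5′ UTR were sorted, and neighbours were joined when the next peak began at most 12.5 kb after the furthest end reached so far. Clusters of 6 or more peaks were kept. They numbered 562 and held 4160 peaks, or 8.42% of the 49416 non-promoter peaks and 6.57% of all 63316 peaks. No measured level entered this rule. It does depend on where peaks were called, since a locus with many called peaks is joined more easily.

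The cells were primary cardiac fibroblasts of the mouse, and both cultures had received TGF-β, which activates fibroblasts. The control library, labelled NC, is called SCR here after the scrambled siRNA of the study, and the other library, labelled SiPiezo2, came from cells that also received siRNA against Piezo2, a mechanically gated cation channel. With a single library for each condition, nothing here has a replicate check and no test was made. The labels give neither age nor strain of the animals, nor how many were pooled. The design text of the series speaks of Tet3 knockout with Cre virus in place of siPiezo2. The study's figure legend for its ATAC-seq names siRNA against Piezo2 or scrambled siRNA, which matches the label SiPiezo2. Why the design text differs was not settled, so that all values rest on the sample labels. Neither Piezo2 nor Tet3 led a cluster, and ATAC-seq does not measure a knockdown.

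In ATAC-seq the Tn5 transposase cuts accessible DNA and leaves sequencing adapters there, so that reads pile up over promoters, enhancers and other open elements. Enhancers are bound by transcription factors and act on genes at a distance, and several of them often lie close together around genes that define what a cell is or does. In activated fibroblasts such genes include those for collagens, matricellular proteins, contractile actin proteins and the receptors and Smad regulators of the TGF-β pathway. Clusters of accessible elements are related to stretch enhancers and super-enhancers, but the latter are defined by histone marks or cofactor binding that were not measured here. The clusters are therefore described only as dense groups of accessible peaks.

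The clusters held between 6 and 18 peaks with a median of 7, and 236 of them held exactly 6, the smallest number the rule admits. Another 467 groups of 5 peaks lay just outside it. The clusters spanned 10.7 to 100 kb, with a median of 35.7 kb, and neighbouring peaks within them lay a median of 5333 bp apart. Introns held 56.0% of the member peaks and 51.5% of the 19762 non-promoter peaks that were joined to no other, called isolated peaks below. In 163 clusters all peaks were intronic, in 86 all were intergenic and in 313 they were mixed. Member peaks lay a median of 14.1 kb from the nearest transcription start site (TSS) and isolated peaks 18.4 kb. Chromosome 11 held the most clusters, 59, and chromosomes 18 and 19 the fewest, 16 each.

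Peaks in clusters were also stronger than isolated peaks, although strength played no part in the rule. The signal is the authors' normalized read density of a window of 2000 bp around each peak. Its median was 30.3 in SCR and 26.7 in siPiezo2 over the member peaks, against 20.1 and 18.4 over the isolated peaks. The clusters therefore held 11.1% of the summed non-promoter density in SCR and 11.02% in siPiezo2, above their share of the peaks. Whole reads could be recovered from the table, and a median member window held 73 reads in SCR and 43 in siPiezo2. The windows of 671 member peaks overlapped that of a neighbour in the cluster, so a sum over all peaks counts some reads more than once. Each cluster is called by its leading gene, the gene to which the table assigns the largest number of its peaks (ties by density). This names the place and does not show that the gene is regulated there. The leading gene took every peak in 268 clusters, but it need not hold a majority, with 4 of 9 for Ccn1 and 3 of 6 for Gm35254.

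Summed over a cluster, accessibility was more often lower than higher in the siPiezo2 library. The log2 ratio of siPiezo2 to SCR, with 1 added to each summed density, had a median of -0.16 over the 562 clusters (quartiles -0.33 and -0.028), and 437 clusters were below 0. Over the 4160 member peaks the median was -0.17. It was -0.16 over the 49416 non-promoter peaks and -0.13 over all 63316 peaks of the table, promoters included. The shift of the clusters is thus close to that of non-promoter peaks in general. With median-of-ratios scaling, which sets the median of all peaks to 0, the median of the clusters was -0.020 and 304 of them were below 0. Bulk libraries cannot tell fewer cells with an open site from a site that is less open in each cell.

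A peak or cluster is counted as lower below 0.66 of SCR and as higher above 1.5 of SCR. Of the member peaks, 667 (16.0%) were lower and 150 (3.61%) higher, beside 13.5% and 3.21% of all peaks. Of the clusters, 22 (3.91%) were lower and 3 (0.534%) higher, beside 12.7% and 2.69% of the 30233 stitched units of any size. With median-of-ratios or trimmed mean scaling the balance was the reverse, with 4 clusters lower and 7 higher. Sums over more windows spread less: the lower share was 14.6% for isolated peaks and 7.62% for groups of 3 to 5. Past 2-fold (below 0.5 or above 2), 0 clusters were lower and 2 were higher, beside 2.33% and 0.536% of the units. At that threshold 137 member peaks (3.29%) were lower and 22 (0.529%) higher, beside 2.76% and 0.504% of all peaks. The background of peaks includes promoters. Among non-promoter peaks the lower share past 1.5-fold was 15.4% for pairs and 15.7% for groups of 3 to 5, close to the 16.0% of the members.

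The split between lower and higher members moved with the scaling. In the authors' densities 81.6% of the member peaks past 1.5-fold were lower. The share was 58.4% with median-of-ratios scaling, 58.0% with trimmed mean scaling, 68.6% with both libraries at the same total density and 61.9% with recovered reads at the same total.

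**Figure D1:**
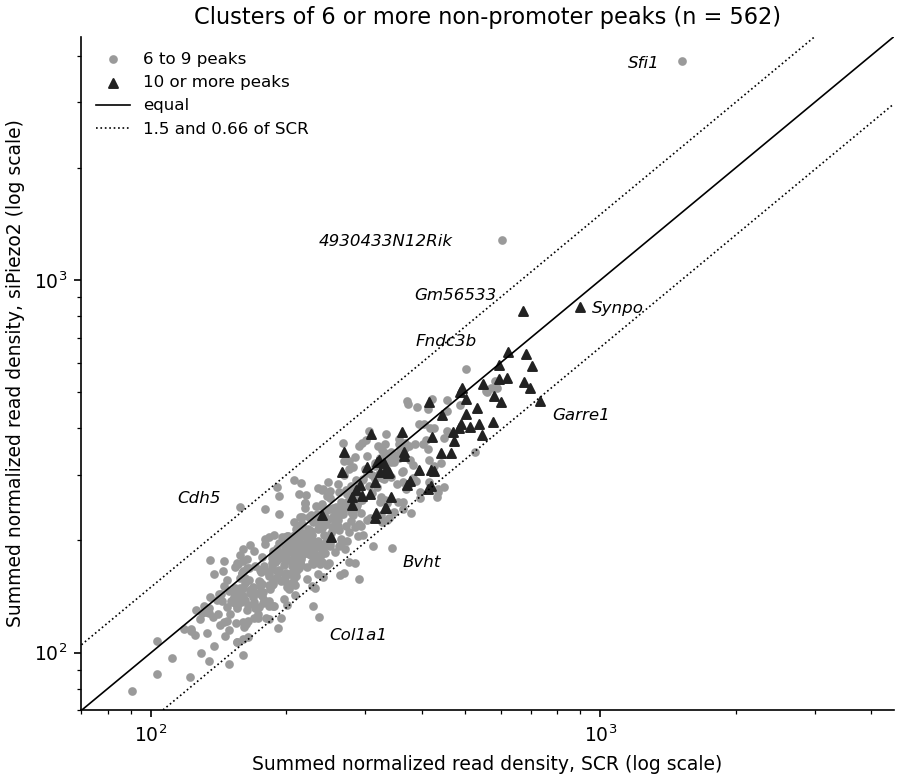
Summed normalized read density of each of the 562 clusters in the SCR library (x axis, log scale) and the siPiezo2 library (y axis, log scale), with grey circles for 6 to 9 peaks and black triangles for 10 or more. The solid line marks equal sums and the dotted lines 1.5 and 0.66 of SCR: 437 clusters have a log2 ratio below 0, 22 lie below the lower dotted line, and 3, led by Sfi1, 4930433N12Rik and Cdh5, lie above the upper one.

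The direction of a member peak went with the library in which it had been called. Of the member peaks, 1553 (37.3%) had been called in both libraries, 2501 (60.1%) in SCR only and 106 (2.55%) in siPiezo2 only. Their median log2 ratios were -0.0011, -0.28 and 0.48 in that order. The authors' fit centres the peaks called in both, and a peak is called more readily in the library with more signal, so these 3 medians are partly set by construction. Isolated peaks had been called in both libraries less often, at 24.0%. At the level of the clusters, the median log2 ratio was -0.31 in the 33 clusters with no peak called in both libraries, -0.23 in the 124 with up to a share of 25%, -0.16 in the 297 above that and up to 50%, -0.042 in the 95 above that and up to 75%, and 0.00057 in the 13 with more. Summed over the peaks called in both libraries alone, the median over the 529 clusters that hold any was -0.026, with 286 of them below 0.

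Clusters were set beside smaller groups and isolated peaks to see whether density of peaks goes with the log2 ratio. The median was -0.15 for isolated peaks, -0.17 for pairs, -0.18 for peaks in groups of 3 to 5, -0.16 for peaks in clusters of 6 to 9 and -0.21 for the 759 peaks in clusters of 10 or more. Because clustered peaks are stronger, the comparison was repeated within 4 classes of mean density, cut at the quartiles of the non-promoter peaks. In each class the members had a lower median than the isolated peaks, with differences of -0.073, -0.048, -0.066 and -0.013 from the weakest class to the strongest. Peaks in groups of 3 to 5 were close to the members in each class, with medians of -0.26, -0.16, -0.17 and -0.15 beside -0.28, -0.16, -0.19 and -0.14. In the strongest class pairs, at -0.15, and groups of 3 to 5 lay below the members. With recovered reads at the same total these differences were -0.083, -0.053, -0.058 and -0.042. The quartiles of the member peaks, -0.45 and 0.11, are far wider than any of these differences. With reads at the same total, the median of isolated peaks was above 0, at 0.059, while that of peaks in clusters of 10 or more was -0.11. From the weakest density class to the strongest, the isolated peaks were then at 0.080, 0.11, 0.043 and -0.070. Peaks in clusters of 10 or more were at -0.12, -0.012, -0.041 and -0.16.

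**Figure D2:**
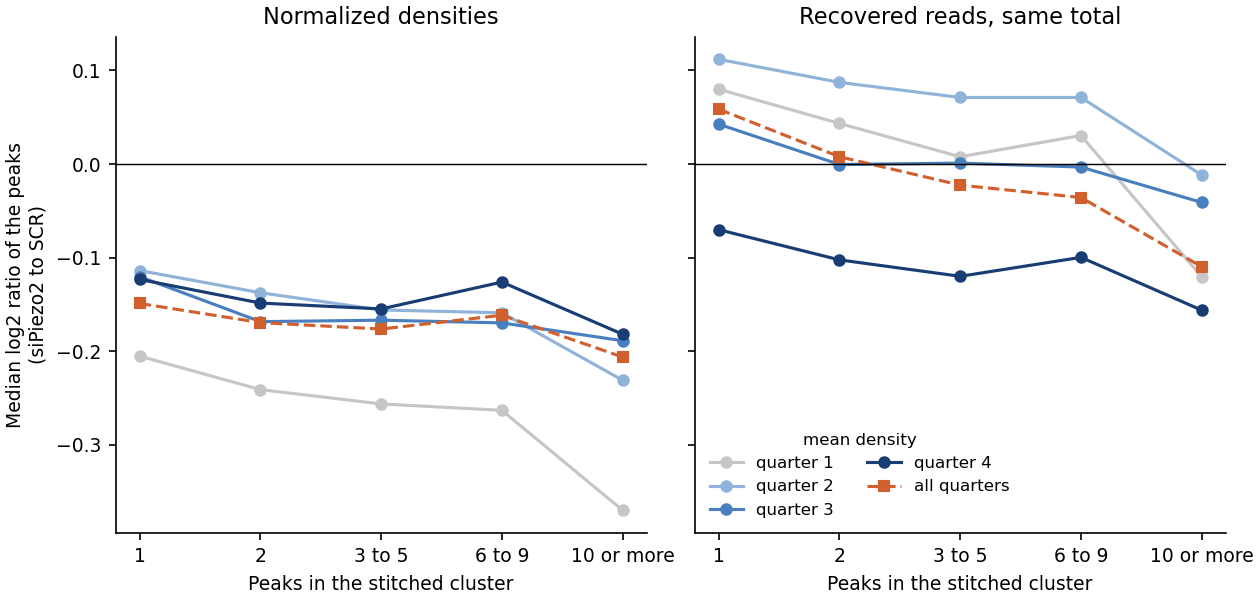
Median log2 ratio (siPiezo2 over SCR) of non-promoter peaks (y axis) by the number of peaks in their stitched cluster (x axis), within 4 classes of mean density from weakest (1) to strongest (4) and over all of them, for normalized densities (left) and recovered reads at the same total (right). In the left panel all medians lie below 0, from -0.11 to -0.37; in both panels the median in clusters of 10 or more peaks is below that of isolated peaks in every class.

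In sums of the authors' densities over all peaks, the lowest cluster lay upstream of Col1a1, which encodes the α1 chain of type I collagen. Its 6 intergenic peaks (GRCm39, chr11:94757426-94773863) lay before the gene, which the table places at chr11:94827050-94843868 on the plus strand. Their densities were 17.2, 56.0, 51.2, 27.4, 45.5 and 38.8 in SCR and 14.0, 30.4, 28.3, 13.7, 18.4 and 19.6 in siPiezo2, in order of position. Every peak was thus lower in siPiezo2, with log2 ratios from -1.26 to -0.28, but 5 of the 6 had been called in SCR only. Summed, the 6 peaks had 236 in SCR against 124 in siPiezo2 (log2 ratio -0.92). Over the 3 windows that do not overlap, the log2 ratio was -0.78 with a 95% exact binomial (Clopper-Pearson) interval of -1.14 to -0.43, from 244 and 92 reads. Such intervals cover counting error only. Over windows that do not overlap, clusters such as those of Bvht (-0.95) and Vps53 (-0.87) were lower than this one. With recovered reads at the same total Bvht was at -0.82 and this cluster at -0.81. A second cluster of 8 peaks (chr11:94804550-94827952), nearer to the gene and reaching into an intron of it, was less different, at 457 in SCR and 392 in siPiezo2. Its log2 ratio was -0.22, with peaks between -0.82 and 0.34, so that the 2 clusters assigned to Col1a1 differed by 0.70.

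Clusters at 4 genes of secreted matricellular proteins, Ccn1, Ccn2, Ccn4 and Ccn5, are given together, a grouping made after the values were seen and not tested. None was among the 10 lowest, and that of Ccn4, at -0.45, was not lower past 1.5-fold. Ccn1 (also known as Cyr61), a classical target of YAP and of SRF, led a cluster of 9 peaks (chr3:145299091-145359282) with 435 in SCR and 275 in siPiezo2 (log2 ratio -0.66, separate windows -0.57, interval -0.75 to -0.38). All 9 peaks were below 0 with a median of -0.41, but 8 had been called in SCR only, which partly sets their direction. The lowest pair, with overlapping windows, had 118 and 107 in SCR and 58.6 and 54.1 in siPiezo2. This pair lay just downstream of the gene. The cluster of Ccn5, on the extracellular matrix list and named after its values were seen, had 449 and 278 (log2 ratio -0.69, 9 of 9 peaks below 0). Ccn2, which encodes connective tissue growth factor, lies within a cluster that the table assigns to Gm15270, a gene without a functional name that overlaps it on the other strand. That cluster (chr10:24444295-24486078), also named after its values were seen, had 435 in SCR and 270 in siPiezo2 (log2 ratio -0.69, interval -0.85 to -0.52). Its 6 peaks were not alike, with a median of -0.17 and 2 of them above 0. Without the strongest peak the cluster was at -0.57. The peak within Ccn2 (chr10:24472171-24472891) had 211 in SCR and 120 in siPiezo2, and that just past its end (chr10:24475301-24475667) 120 and 34.9. The furthest downstream had 25.9 and 36.5. The Gm15271 cluster on the same chromosome (chr10:24320945-24355506) was at -0.70 with 284 and 174.

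Other clusters among the 10 lowest were led by genes of varied function. In Vps53, a subunit of a complex that tethers vesicles at the Golgi, 7 intronic peaks (chr11:76011228-76051391) summed to 290 in SCR and 157 in siPiezo2 (log2 ratio -0.88). All 7 were below -0.60, from -1.34 to -0.67, and the interval over the separate windows, -1.10 to -0.65, lay below -0.60 as a whole. Bvht (Braveheart), a long noncoding RNA known from cardiac lineage commitment, led a cluster of 6 peaks (chr18:61742724-61778363) next to Carmn, another noncoding RNA gene of contractile cells. It had 344 and 191, a log2 ratio of -0.85. Over its 5 separate windows the ratio was -0.95, with an interval of -1.17 to -0.73. Its exonic peak, at 87.3 in SCR and 17.0 in siPiezo2, was the lowest member peak of the table, at -2.29, and the median over the 6 peaks was -0.55. Vps53 and Bvht were the only 2 of the 22 lower clusters with a whole interval below -0.60.

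The remaining clusters of the lowest 10 had log2 ratios between -0.78 and -0.70. Map4k3, a kinase gene, led 7 intergenic peaks at 230 and 133 (log2 ratio -0.78). The cluster of 2310022B05Rik, near the protease gene Capn9, was at -0.72, and that of ENSMUSG00000118406 on chromosome 3 at -0.71. Gm35254 led a cluster (chr8:62074402-62099777) within 50 kb of Palld, which encodes the actin-associated protein palladin, with 192 in SCR and 117 in siPiezo2 and a log2 ratio of -0.71. The 6 peaks in introns of Syn3 (chr10:86225601-86267468), a synapsin gene that hosts the metalloproteinase inhibitor gene Timp3, had 264 and 162, a log2 ratio of -0.70, and each was below 0. Acvr1, a type I receptor for BMPs, had 160 and 98.5, a log2 ratio of -0.70. In the Acvr1 cluster the 4 peaks called in SCR only lay between -1.85 and -0.44 and the 2 called in both libraries at 0.093 and 0.11, so that its ratio rests on the SCR-only peaks.

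**Figure D3:**
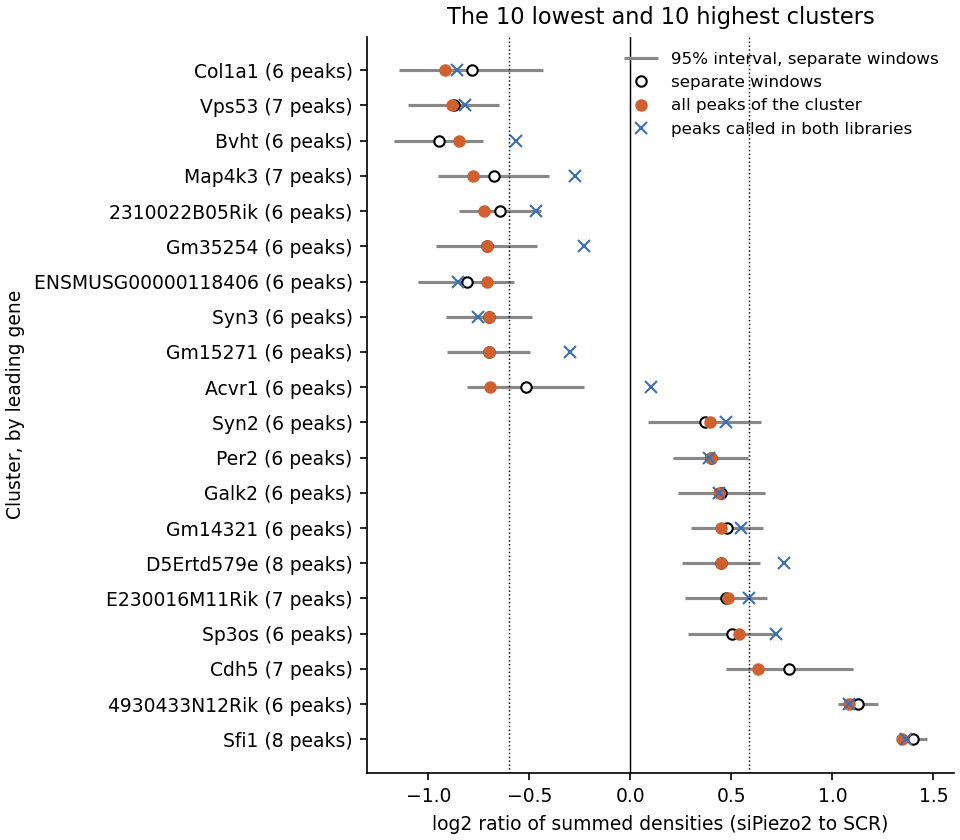
Log2 ratio of siPiezo2 to SCR (x axis) for the 10 lowest and 10 highest clusters (y axis, with the number of peaks), with filled circles for all peaks, open circles for windows that do not overlap, grey bars for their 95% exact binomial intervals and crosses for the peaks called in both libraries. Dotted lines mark 0.66 and 1.5 of SCR. The crosses of Acvr1 (0.10), Gm35254 (-0.23) and Map4k3 (-0.27) lie far from the circles, while those of Col1a1 and Vps53 lie close to them. The Col1a1 cross rests on 1 of 6 peaks and the Vps53 cross on 3 of 7, and each is part of the sum it is set against.

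Taken as a group, the 22 lower clusters held 159 peaks, of which 150 were below 0, and in 15 of them every peak was. Of these peaks 106 had been called in SCR only, 53 in both libraries and 0 in siPiezo2 only. Over all member peaks the shares were 60.1%, 37.3% and 2.55%. Over all 562 clusters, 105 had an interval below the median of all stitched units, -0.16, and 86 had one above it; the 22, chosen for low ratios, were among the 105. Summed over the peaks called in both libraries, 20 of the 22 remained below 0 and 8 below 0.66 of SCR. With recovered reads at the same total, 12 of the 22 were below 0.66 of SCR, and without the strongest peak 15 were. With median-of-ratios or trimmed mean scaling, 4 clusters in all were. Genes of the extracellular matrix list, which led 20 of all 562 clusters, led 4 of them, Col1a1, Ccn5, Ccn1 and Hspg2, the last encoding the basement membrane proteoglycan perlecan.

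Only 3 clusters were higher past 1.5-fold, and 2 of them lay near the start of a chromosome as assembled. The 8 intronic peaks of Sfi1, a gene for a centrin-binding protein, lay at chr11:3122426-3149976 and had 1524 in SCR and 3867 in siPiezo2 (log2 ratio 1.34, separate windows 1.40, interval 1.32 to 1.47). This was also the largest summed density of all clusters. The 6 intergenic peaks nearest to 4930433N12Rik (chr9:3020392-3038254) had 606 and 1284, a log2 ratio of 1.08, and the median over the peaks was 0.62. The lowest peak starts in the table were 3050309 on chromosome 11 and 2999990 on chromosome 9. With recovered reads at the same total the ratios were 0.87 and 0.71 (the authors' fit raises siPiezo2 more in strong windows than in weak ones). Without both clusters 1 cluster was higher past 1.5-fold and the median over the clusters stayed at -0.16.

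The third was assigned to Cdh5, which encodes VE-cadherin, an adhesion protein of endothelial cells. Its 7 peaks (chr8:104801675-104817253) lay before the gene and had 158 in SCR and 245 in siPiezo2 (log2 ratio 0.63). Of these, 4 peaks lay within 1.35 kb of the cluster's start, so only 3 windows were separate. Over those the ratio was 0.79 (interval 0.47 to 1.10, from 160 and 184 reads). All 7 peaks were above 0, 4 had been called in siPiezo2 only and 3 in SCR only. Promoter or 5′ UTR peaks were found for 1 of the 8 endothelial markers, Tek, at a density of 25.8 in SCR and 28.1 in siPiezo2, and not for Cdh5 itself. The part of other cell types in this result was not tested.

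The other 7 of the highest 10 clusters stayed under 1.5-fold in the authors' densities, although with median-of-ratios or trimmed mean scaling 7 clusters in all were past it. They had log2 ratios between 0.39 and 0.54 and all their intervals were above 0. Sp3os, on the locus of the transcription factor gene Sp3, had 191 in SCR and 278 in siPiezo2 (log2 ratio 0.54). E230016M11Rik, within 50 kb of the stress gene Gadd45a, had 208 and 292 (log2 ratio 0.48). Per2, a repressor of the circadian clock, had 216 and 285 with all 6 peaks above 0 (log2 ratio 0.40). The clusters of D5Ertd579e, Gm14321, Galk2 and Syn2 made up the rest, and without their strongest peak those of D5Ertd579e and Galk2, at 0.45 and 0.44, were at 0.14 and 0.23.

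Of the 67 clusters of 10 or more peaks, 55 were below 0 and the median was -0.17, close to the 77.8% below 0 and the median of -0.16 over all clusters. Synpo, which encodes the actin-binding protein synaptopodin, led the largest, with 18 peaks over 87.6 kb (chr18:60726641-60814276). It had 901 in SCR and 846 in siPiezo2 (log2 ratio -0.090), while its peaks ran from -0.75 to 0.55. Of the 18 peaks 10 were below 0, and the median over all of them was -0.23. The 16 intronic peaks of Fndc3b (chr3:27619352-27719519), a gene for a fibronectin type III domain protein, had 622 and 640, a log2 ratio of 0.042, with peaks from -0.66 to 0.71. In both loci, peaks with more and with less density in siPiezo2 lay side by side, and the sums were close to even. The 15 peaks around Gm56533 (chr12:86817015-86883809), within 50 kb of Irf2bpl, had 672 and 829, a log2 ratio of 0.30. Over separate windows the Gm56533 cluster was at 0.29, with an interval of 0.18 to 0.41. The median over its peaks was 0.15, and 10 of these had been called in both libraries. Ski and Trak1 also had 15 peaks each and were below 0.

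**Figure D4:**
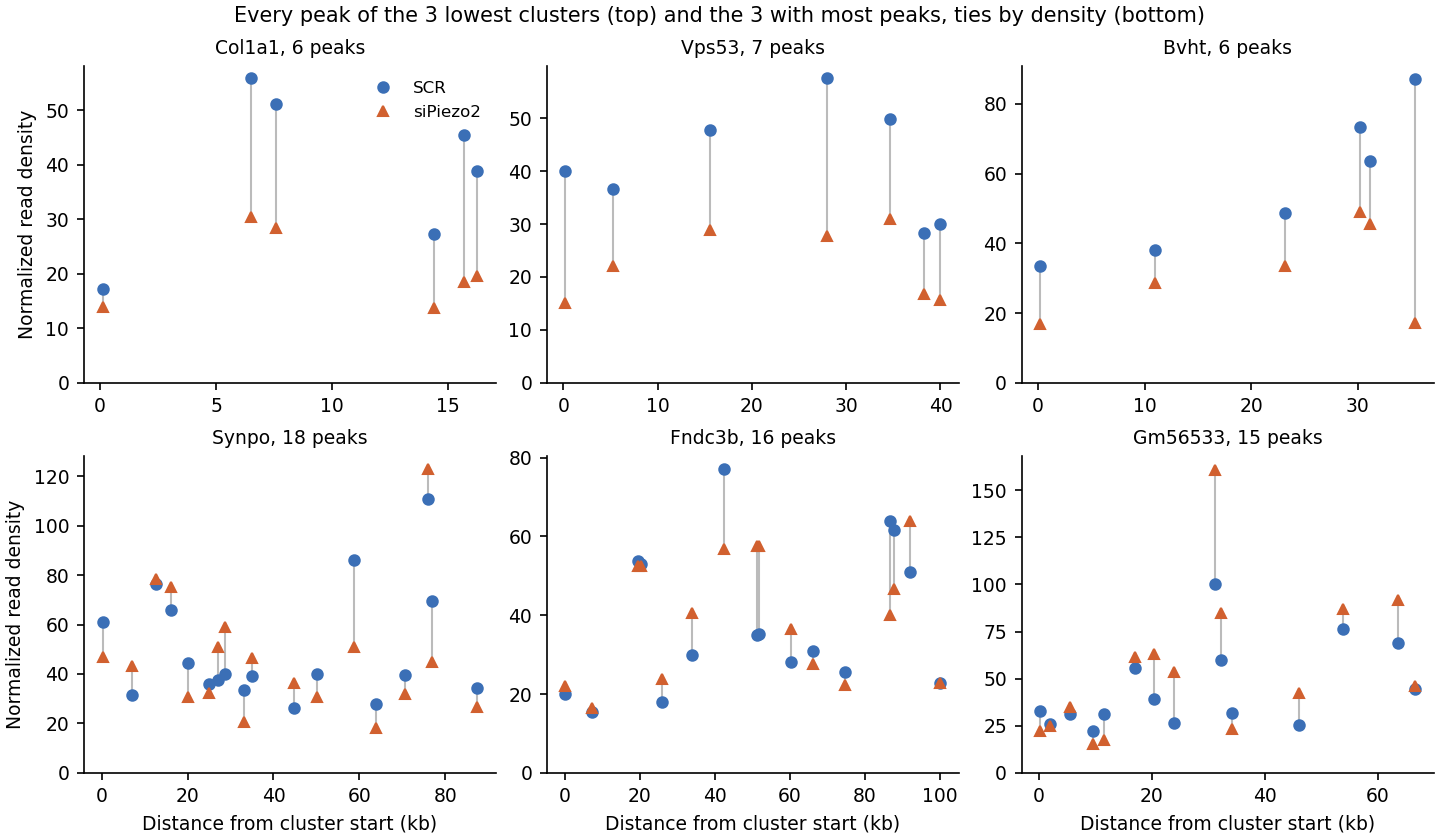
Normalized read density (y axis, from 0) of every peak in SCR (blue circles) and siPiezo2 (orange triangles) by distance from the start of its cluster in kb (x axis), for the 3 lowest clusters (top row) and the 3 with most peaks (bottom row), where Gm56533 stands before Ski and Trak1, also of 15 peaks, by its larger density. In the top row all 19 triangles lie below their circles, and most of these peaks had been called in SCR only. In the bottom row triangles lie on both sides of the circles, with sums of 901 and 846 for Synpo, 622 and 640 for Fndc3b and 672 and 829 for Gm56533.

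The other 7 of the 10 clusters with most peaks were below 0. Ski, a corepressor that binds Smads and restrains TGF-β signalling, had 15 peaks with 676 in SCR and 532 in siPiezo2 (log2 ratio -0.35, interval -0.40 to -0.14 over separate windows at -0.27). A run of 4 neighbouring peaks within it lay between -0.75 and -0.65, but windows overlap within the run, so these are not 4 separate readings. Garre1, an effector of Rac and RhoG, had 13 peaks with 735 and 474, a log2 ratio of -0.63, and was the only cluster of 10 or more peaks past 1.5-fold in the authors' densities. Fbn1, which encodes the microfibril protein fibrillin-1, had 14 peaks with 538 and 411 (log2 ratio -0.39), and Trak1, a mitochondrial transport adaptor, 15 peaks with 706 and 588 (log2 ratio -0.26). Lmna, the gene of lamins A and C, was at -0.11 with 682 and 632, but at -0.31 over its separate windows. Synj2 was at -0.065, but 10 of its 13 peaks were below 0, their median was -0.30 and the sum without the strongest peak was at -0.16. Dusp1, a phosphatase of MAP kinases, was at -0.011, and the median over its peaks was 0.092.

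Leading genes were then grouped by lists of the processes at issue in activated fibroblasts. A gene on at least 1 of the 21 lists led 75 clusters, with a median log2 ratio of -0.25 and 65 below 0, beside -0.14 and 372 of 487 for the other clusters. The lists were chosen with earlier results of these data known, and their direction here is not independent evidence. Clusters given for a list beyond its lowest and its largest were named after their values were seen. Of the 20 clusters of the extracellular matrix list, 17 were below 0, beside 437 of all 562, and the median was -0.26. In the authors' densities 4 of the 20 were lower past 1.5-fold and 0 higher, beside 3.91% and 0.534% of all clusters, and with median-of-ratios scaling 4 clusters of any gene were lower. Besides those named above, Sparc, a collagen-binding matricellular protein, was at -0.49, Loxl1, an elastin crosslinking enzyme, at -0.41 and Col5a1, a fibril-forming collagen with 13 peaks, at -0.25. The basement membrane collagens Col4a1 and Col4a2, at 0.039 and 0.057, and the metalloproteinase inhibitor Timp2, at 0.32, had values above 0.

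Actin and adhesion genes had medians below that of all clusters. Among 15 clusters of the actin cytoskeleton and contraction list 14 were below 0, with a median of -0.29, and none passed 1.5-fold. Over all clusters 77.8% were below 0, and the counts of this list and the next are to be read against that share. The lowest was Actn4, α-actinin 4, with 338 in SCR and 230 in siPiezo2 (log2 ratio -0.56), followed by Fhl2 at -0.55 and Synpo2 at -0.53. All 7 clusters of the focal adhesion and integrins list were below 0, with a median of -0.40, from Itgb1, the β1 integrin chain, at -0.51 (246 and 172) to Parva at -0.19. Tns3, which links integrins to actin, led 2 of these at -0.41 and -0.39, and Nedd9, an adhesion scaffold, another 2 at -0.44 and -0.40. These 7 clusters thus stand for 5 genes.

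Genes of the TGF-β and BMP list led 4 clusters, of which 3 were below 0. Of these, Acvr1 at -0.70, Ltbp4, which binds latent TGF-β, at -0.45 and Ski at -0.35 were below 0, while Smad3, the signal-carrying Smad of TGF-β, had 285 in SCR and 336 in siPiezo2 (log2 ratio 0.24) with all 8 peaks above 0. The median of the 4 was -0.40, and over the peaks called in both libraries it was 0.10 in the 3 clusters that hold any. Targets and members of the YAP, TAZ and TEAD list led 9 clusters, 8 of them below 0 (77.8% of all clusters were), with a median of -0.24 in the authors' densities and -0.12 with recovered reads at the same total, from Ccn1 at -0.66 and Rbms3 at -0.40 to Ptpn14 at 0.0093. SRF targets led 6, all below 0, among them Myh9, nonmuscle myosin IIA, with 11 peaks at 697 and 513 (log2 ratio -0.44), and their median was -0.42. Ccn1 and several actin genes stand on more than 1 of these lists.

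The other lists held few clusters. Fibroblast transcription factor genes led 6, all below 0, beside 77.8% of all clusters. Their median was -0.24, from Tbx18 at -0.36 (-0.60 without its strongest peak), past Nfix at -0.20, to Ebf2 at -0.096. Nfix was at -0.10 over separate windows and at -0.35 as the median over its peaks. In the Wnt and Notch list, Heyl, a repressor acting downstream of Notch, was at -0.68 (380 and 237). All 9 peaks of the Heyl cluster were below 0, but 8 had been called in SCR only. Rbpj, the DNA-binding partner of Notch, was at 0.20, but at 0.056 without its strongest peak. Of the growth factor and receptor clusters, Igf1r was at -0.45, Fgfr2 at -0.12, Egfr at 0.034 and Igfbp7 at 0.16. Igf1r was at -0.72 without its strongest peak and at -0.27 with recovered reads at the same total. Cacna1c, the L-type calcium channel, was at -0.30 (-0.19 with recovered reads at the same total) with 9 peaks, none called in both libraries, and the median of the 3 channel and calcineurin clusters was -0.097. Unc5b alone stood for axon guidance, at -0.25. No cluster was led by an AP-1 factor or by a TET or DNA methyltransferase gene.

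**Figure D5:**
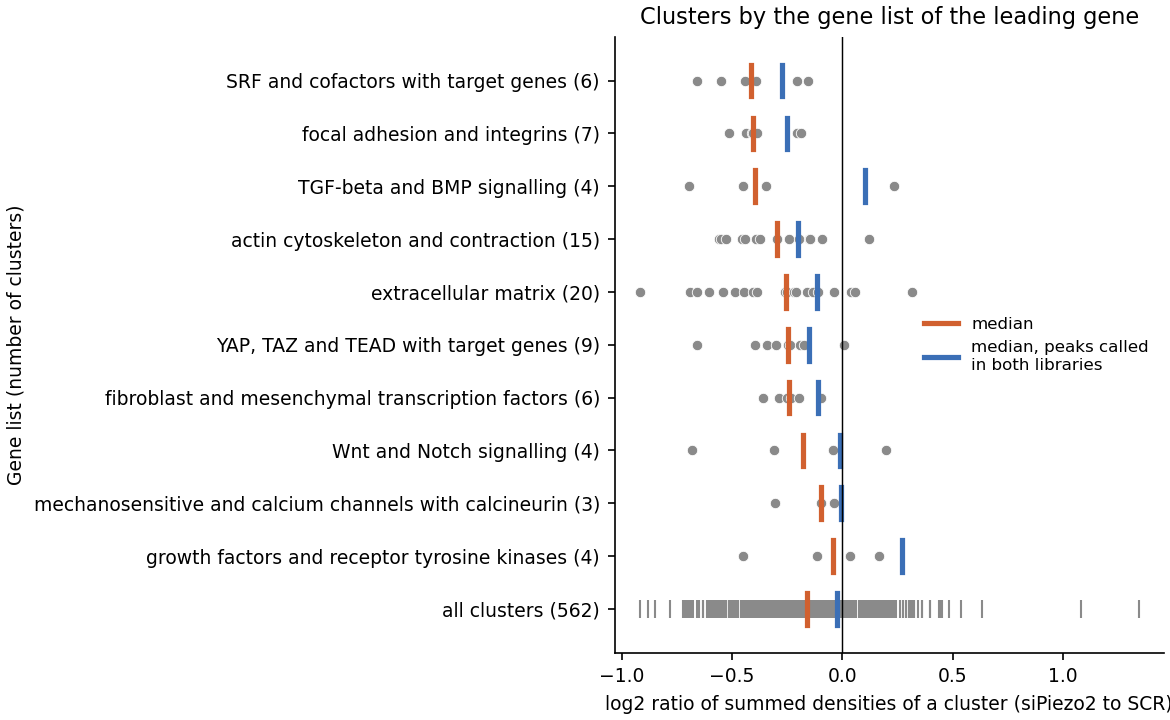
Log2 ratio of siPiezo2 to SCR of single clusters (x axis, grey points) for each gene list with 3 or more clusters (y axis, number of clusters in brackets) and for all 562 clusters (ticks), with orange bars for medians and blue bars for medians over the peaks called in both libraries only. Orange medians run from -0.42 for SRF targets to -0.041 for growth factors and receptors; blue medians lie above the orange ones in each list and above 0 for TGF-β and BMP (0.10) and growth factors (0.27).

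Cell type marker genes served as a check of the label. Promoter or 5′ UTR peaks were present for 8 of 10 fibroblast markers, whose densities summed to 593 in SCR against 541 in siPiezo2. They were present for 1 of 12 cardiomyocyte, 0 of 8 leukocyte, 0 of 4 glial, 2 of 7 mural and 4 of 5 mesothelial markers. The mural sum was 50.7 in SCR and 36.7 in siPiezo2 and the mesothelial sum 83.0 and 99.2. Tnnt2, a cardiomyocyte troponin gene, led a cluster at -0.17. All windows together held 4615335 reads in SCR and 2754046 in siPiezo2.

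The log2 ratios of peaks within a cluster were alike only to a small degree. Among 3489 member peaks with separate windows, the SD within clusters was 0.40, and counting error alone would give 0.29. The SD between cluster means was 0.24, where means of peaks with nothing in common would give 0.17. In 70 clusters every peak was below 0 and in 9 every peak was above. Against the median of all peaks, -0.13, these counts were 23 and 14. Across neighbouring separate peaks of a cluster, Pearson's r of the log2 ratios was 0.18 at 2000 to 5000 bp, 0.20 at 5000 to 10000 bp and 0.10 at 10000 to 20000 bp, over 817, 1466 and 644 pairs. These pairs share both libraries and often a similar depth, and peaks are not independent replicates.

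Neighbouring clusters were alike at short range only. Of 53 pairs of clusters within 100 kb of each other, 39 lay on the same side of the cluster median, with an r of 0.36. Between 100 kb and 1 Mb, 77 of 158 pairs did so, with an r of 0.028. There were 21 genes that led 2 clusters each. Their clusters differed by between 0.011, for Ldlrad4, and 0.70, for Col1a1, with Fbn1 at -0.54 and -0.39, Smg6 at -0.46 and -0.35 and Vps53 at -0.88 and -0.26.

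Clusters were last compared with the promoter peaks of their leading genes, which the rule had left out. Such peaks existed for 285 clusters with 271 leading genes. The median log2 ratio was -0.17 for these clusters and -0.092 for the promoters, and the median difference, cluster minus promoter, was -0.071 (quartiles -0.34 and 0.17), with 158 of 285 below 0. It was -0.028 with recovered reads at the same total. Over the whole table the median log2 ratio was -0.16 for non-promoter peaks and -0.042 for promoter peaks, so a gap between the 2 kinds is not particular to clusters. The r between cluster and promoter was 0.26 across the 285 clusters, which share 2 libraries. Vps53 was at -0.88 in its cluster and -1.13 at its promoter, Bvht at -0.85 and -0.90, and Ccn1 at -0.66 and -0.67. Other genes parted: Ski was at -0.35 in the cluster and 0.57 at the promoter, Map4k3 at -0.78 and -0.054, Syn3 at -0.70 and 0.17, and E230016M11Rik at 0.48 and -0.47. Of the 22 lower clusters, 13 had a promoter peak for their leading gene, and it was below 0 in 11, beside 176 of the 285 clusters with such a peak; the 22 were chosen for low values.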

How the data were processed

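ATAC-seq reads were aligned by the authors with BWA (version 0.7.12, per the labels); the methods name Picard and MACS2. The labels name mm10, but gene coordinates and scaffolds in the table are those of GRCm39, and positions are given as in the table. No sequence is printed, since the genome used here is of another build. The signal values deposited by the authors are read densities of windows of 2000 bp, normalized by a linear fit of the log2 ratio (M) on the mean log2 density (A). The deposited table also holds the authors' log2 fold change and p-value, which were not used.

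From the M and A values whole reads were recovered for 100% of peaks (tolerance 0.05 reads). Cluster sums and log2((siPiezo2 + 1)/(SCR + 1)) were computed, with 95% exact binomial intervals from the reads of windows that do not overlap, shifted by the normalization. Intervals cover counting error only. Peaks were assigned to the host gene or, without one, to the gene of the nearest TSS. Of 20187 gene IDs, 16944 were named by the table, 2955 by GENCODE M21 and 288 not. With 1 library per condition no test was made.

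Named were the 10 clusters with most peaks, the 10 of largest mean density, the 10 lowest, the 10 highest, and per gene list the cluster with most peaks and the lowest, 46 in all; others are said to be named after their values were seen or fill out a list or gene pair. Members and lists were chosen with earlier results of these data known. Alternatives covered scaling (trimmed mean: 30% of log2 ratios and 5% of densities), pseudocount (0.1), stitching distance, peaks per cluster, fold and windows. Procedures were tested on simulated data. The work was done in Python (3.11.15) with pandas (2.3.3) for tables, numpy (2.4.6), scipy (1.17.1) for intervals and matplotlib (3.10.9) for plots.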

Additional observations from a re-analysis of the deposited data

How the results depend on the processing

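The median over the clusters stayed below 0 under each alternative run, but its size moved with the scaling and with the peaks admitted. It was -0.020 with median-of-ratios scaling, -0.017 with trimmed mean scaling, -0.072 at the same total density, -0.064 with recovered reads at the same total, -0.22 over the 26 clusters left at a stitching distance of 5000 bp, and -0.026 over peaks called in both libraries. The median over the member peaks was -0.035, -0.031, -0.084 and -0.046 under the same 4 scalings and -0.0011 over peaks called in both. Lower clusters past 1.5-fold numbered 4 with median-of-ratios and with trimmed mean scaling, 12 at the same total density and with recovered reads, 2 and 52 at stitching distances of 5000 and 25000 bp, and 0 past 2-fold. Higher clusters numbered 7 with median-of-ratios and with trimmed mean scaling, 0 at 5000 bp, and 1 without the clusters of Sfi1 and 4930433N12Rik, an alternative chosen after seeing the data. Lower member peaks numbered 405 with median-of-ratios scaling, 403 with trimmed mean scaling and 137 past 2-fold. Higher member peaks numbered 289, 292, 230 at the same total density, 285 with recovered reads and 22 past 2-fold. By cluster size, recovered reads at the same total turned the medians for 1 and 2 peaks to 0.059 and 0.0077 and gave -0.023, -0.036 and -0.11 for 3 to 5, 6 to 9 and 10 or more. In the upper 75% of mean density the medians for 1, 2 and 3 to 5 peaks were -0.12, -0.15 and -0.16.

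Among gene lists, median-of-ratios scaling gave -0.12 for extracellular matrix, -0.11 for YAP, TAZ and TEAD, 0.098 for growth factors and 0.042 for channels, the last pair above 0. The other lists moved towards 0 as well, to -0.16 for actin, -0.26 for focal adhesion and -0.26 for TGF-β and BMP. SRF targets were then at -0.28, fibroblast transcription factors at -0.10 and Wnt and Notch at -0.039. Peaks called in both libraries, chosen after seeing the data, gave -0.11 for extracellular matrix, 0.10 for TGF-β and BMP, -0.15 for YAP, TAZ and TEAD, 0.27 for growth factors and -0.0069 for channels. Recovered reads, likewise chosen later, gave -0.12 for YAP, TAZ and TEAD and 0.13 for growth factors. The causes were not tested beyond what each alternative changes by construction. Of the values of the 46 named clusters under 4 alternatives each, 172 were classed as the same and 12 as moved. The limit for a move was narrower than the full counting interval. Ccn1 as a median over its peaks, at -0.41, was classed as moved although inside its interval of -0.75 to -0.38. Fgfr2 with recovered reads (0.093) and Dusp1 as a median over its peaks (0.092) or over separate windows (0.056) were above 0 in place of below. The median difference between cluster and promoter stayed between -0.071 and -0.028. With 1 library per condition neither leaving out a replicate nor a replicate block was possible. No paired analysis was possible because each condition has 1 library. Median windows of 73 and 43 reads limit single peaks, and intervals of a cluster were a median of 0.44 wide on the log2 scale.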
